A study of Homo sapiens with 12 samples.

Results

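The genes FOXO3, BNIP3L, ULK1, MAP1LC3B and GABARAPL1, which act in autophagy and in the clearance of mitochondria, were examined for GATA1 and TAL1 binding in K562, a human erythroleukemia cell line. The members are the intervals of 2 deposited lists, 1 for GATA1 and 1 for TAL1, that overlap a fixed window around each gene in the human build hg19. There were 18 such intervals of 24658 in both lists together, 14 of them in the GATA1 list and 11 in the TAL1 list. An interval is called shared where the same start and end stand in both lists, and otherwise GATA1 only or TAL1 only. No interval of either list overlapped one of the other only in part, so boundaries are common to both lists. The sources used do not say how they were set, and an exact match cannot be read as agreement of separate peak calls. The rule uses positions around the genes and no measured value.

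The study used ChIP-seq, in which chromatin bound by a factor is precipitated with an antibody and sequenced, in control K562 cells and in cells in which GATA1 or TAL1 was knocked down by short hairpin RNAs delivered in lentiviral vectors. Of its 12 libraries, 2 were used, the GATA1 and the TAL1 precipitate from control cells, and the other 10 were not analysed here. The labels call the genotype of both libraries control and do not say whether these cells carried a vector. Chromatin was cut with micrococcal nuclease to the size of mono- and dinucleosomes, and the GATA1 and TAL1 libraries were each made from 0.5 ng of precipitated DNA with 12 cycles of amplification. Each factor has 1 library, so no value has a replicate error and no test of a condition was possible. The lists give positions alone, so the height of a peak and the depth of a library are unknown.

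GATA1 is a zinc finger transcription factor of the erythroid lineage, and TAL1, of the basic helix-loop-helix family, can sit with it on DNA in a complex held together by LMO2 and LDB1. A maturing red cell removes its organelles, and mitochondria are taken up by autophagosomes. FOXO3 is a forkhead transcription factor that activates autophagy genes. ULK1 is the kinase that starts autophagosome formation. MAP1LC3B and GABARAPL1 are ubiquitin-like proteins of the ATG8 family that are joined to lipid on the growing membrane. BNIP3L, also called NIX, is a receptor on the outer mitochondrial membrane that binds ATG8 proteins and is needed for mitochondrial clearance in mouse reticulocytes.

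The sequences shown are the 250 bases before an annotated gene start, for all the genes but BNIP3L. They come from RefSeq in build GRCh38.p14, all on the plus strand, with matches to the E-box CANNTG in capitals. Their positions are chr6:108559575-108559824 for FOXO3 (the first of 4 starts listed), chr12:131894372-131894621 for ULK1, chr16:87392086-87392335 for MAP1LC3B and chr12:10212627-10212876 for GABARAPL1. The intervals are in hg19, so these stretches were not placed against them, and the sequence of the intervals themselves is not shown.
FOXO3: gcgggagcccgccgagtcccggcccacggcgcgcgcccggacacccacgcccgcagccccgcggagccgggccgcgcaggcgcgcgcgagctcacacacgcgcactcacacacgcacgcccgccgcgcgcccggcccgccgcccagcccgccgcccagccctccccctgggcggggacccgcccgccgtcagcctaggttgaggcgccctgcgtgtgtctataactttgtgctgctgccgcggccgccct
ULK1: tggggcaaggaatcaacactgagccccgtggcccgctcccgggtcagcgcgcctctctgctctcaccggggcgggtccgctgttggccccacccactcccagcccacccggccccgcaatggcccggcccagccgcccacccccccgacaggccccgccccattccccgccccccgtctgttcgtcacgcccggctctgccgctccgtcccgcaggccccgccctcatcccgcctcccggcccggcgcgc
MAP1LC3B: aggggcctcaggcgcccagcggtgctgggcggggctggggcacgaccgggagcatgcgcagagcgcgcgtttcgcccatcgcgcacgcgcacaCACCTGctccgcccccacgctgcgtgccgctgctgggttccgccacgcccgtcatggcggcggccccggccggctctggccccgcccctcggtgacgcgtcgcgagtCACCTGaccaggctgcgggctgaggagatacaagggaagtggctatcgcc
GABARAPL1: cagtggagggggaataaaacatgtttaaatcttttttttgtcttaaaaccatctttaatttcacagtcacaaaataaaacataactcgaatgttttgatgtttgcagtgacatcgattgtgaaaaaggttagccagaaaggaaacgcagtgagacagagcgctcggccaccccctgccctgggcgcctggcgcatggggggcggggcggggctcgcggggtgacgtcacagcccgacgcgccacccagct
The letters of 3 motifs were searched on both strands of these stretches and of the other FOXO3 starts, 7 stretches of 4 genes in all. BNIP3L was not searched, so the counts do not cover it. GATA with A or T before it and A or G after it was in 0 of the 7, against 22.4% of 34943 such stretches upstream of all listed starts. The E-box CANNTG was in 1 of the 7, that of MAP1LC3B, which held CACCTG at 157 and again at 50 bases before the start, against 61.8% of all stretches. CTG followed by 6 to 9 bases and GATA, which can overlap the first motif, was in 0 of the 7, against 6.15% of all stretches. The stretches of FOXO3, ULK1 and MAP1LC3B shown were 80.4%, 78% and 74.8% G and C and that of GABARAPL1 51.6%, and the part of base composition in these counts was not tested. The absence of a match says only that these letters are not in these 250 bases.

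The windows differed in which factor was listed. FOXO3 held 13 intervals, of which 6 were shared, 6 GATA1 only and 1 TAL1 only. ULK1 held 3 intervals, all of them TAL1 only. MAP1LC3B held 1 interval, GATA1 only, and BNIP3L held 1, shared. GABARAPL1 held none. Of all intervals in the lists, 28.5% were shared, 63.8% GATA1 only and 7.66% TAL1 only. The FOXO3 window thus supplied 13 of the 18 intervals, and sums over the 5 windows mostly describe FOXO3.

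**Figure D1:**
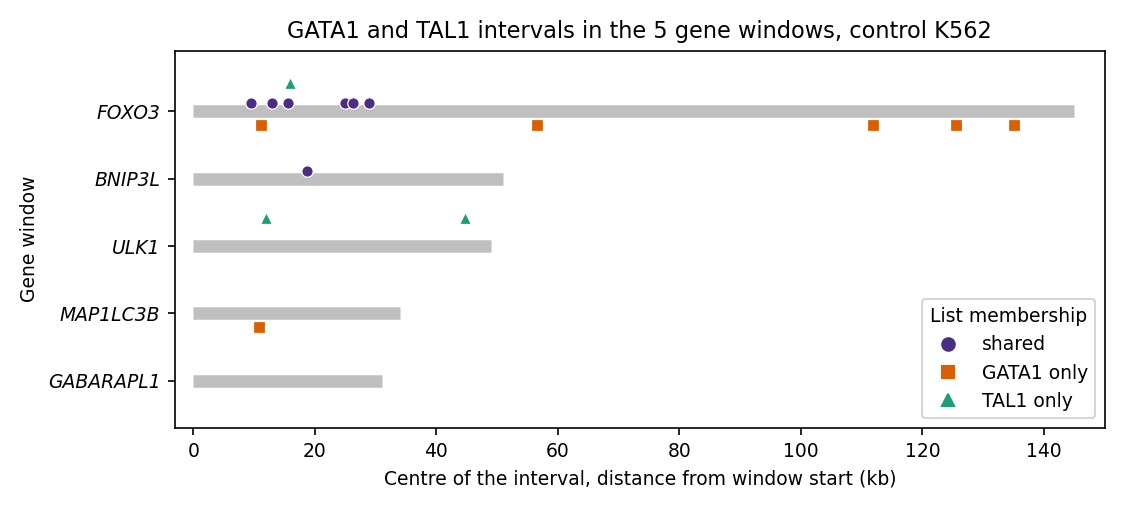
Position of each interval in the 5 gene windows (grey bars), as the distance of its centre from the window start in kb; circles are shared intervals, squares GATA1 only and triangles TAL1 only, and intervals closer than about 1 kb overlap in the drawing. In the FOXO3 window the 7 intervals of the TAL1 list lie before 30 kb and the last 4 intervals are GATA1 only; the ULK1 window holds TAL1-only intervals alone.

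Over the 5 windows, 7 of 14 GATA1 intervals were also in the TAL1 list (50%, exact Clopper-Pearson 95% interval 23.0 to 77.0%), against 30.9% of all 22769 GATA1 intervals. This confidence interval includes the value of the whole list. Of the 11 TAL1 intervals, 7 were also in the GATA1 list (63.6%, 30.8 to 89.1%), against 78.8% of all 8918 TAL1 intervals, which also lies within the confidence interval. Without the FOXO3 window the second share was 1 of 4 (25%, 0.631 to 80.6%). The confidence intervals treat each listed region as a separate draw, cover counting error only, and are wide because the numbers are small.

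The 5 windows together spanned 310 kb and held 5.81 intervals per 100 kb, against 0.812 per 100 kb over chromosomes 1 to 22 and X. Without FOXO3 the density was 3.03 per 100 kb. At least 1 interval stood in 4 of the 5 windows, while 20.3% of the 60716 consecutive 50 kb tiles of these chromosomes held at least 1. A shared interval stood in 2 of the 5 windows and in 8.21% of tiles, and TAL1-only intervals without any of GATA1 in 1 window and 1.14% of tiles. Tiles are laid without regard to genes and include assembly gaps, whereas every window holds a gene. The windows also measured 31 to 145 kb and not 50 kb each, so the tile shares are a loose background.

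FOXO3 had the most intervals for its length. Its 145 kb window (chromosome 6, 108871000 to 109016000, band 6q21) held 8.97 intervals per 100 kb (Poisson 95% interval 4.77 to 15.3), against 1.4 in the 500 kb on each side and 1.26 over chromosome 6. Here and below, Poisson limits treat intervals as independent, although intervals cluster, and are therefore too narrow. At least 13 intervals stood in 0.478% of 20928 tiles of the same length, and at least 6 shared intervals in 0.382%. In RefSeq gene order AFG1L comes before FOXO3 and ARMC2 after it.

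The TAL1 intervals of FOXO3 stood close together. The first and the last of the 7 bounded a stretch of 19.8 kb, from 108880257 to 108900101, which began 9.26 kb into the window and also held 2 GATA1-only intervals, 9 intervals in all. The 4 other GATA1-only intervals were spread over the 116 kb from there to the window end. The stretch was set by the TAL1 intervals after they had been seen, so it holds all of them, and what follows it holds none, by construction.

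Within this stretch, shared and unshared intervals alternated at short range. The first interval, at 108880257 to 108880612, was shared and 356 bp wide. It was followed by a pair of GATA1-only intervals of 97 and 118 bp, at 108881883 to 108881979 and 108882067 to 108882184, only 87 bp apart. The next shared intervals were at 108883912 to 108884153, with a width of 242 bp, and at 108886478 to 108886626, with a width of 149 bp. The TAL1-only interval, at 108886715 to 108886988 and 274 bp wide, began 88 bp after the second of these. Of TAL1-only intervals in the whole lists, 2.55% lay this close to a GATA1 interval or closer. The last 3 intervals of the stretch were all shared, at 108895912 to 108896170, 108897201 to 108897489 and 108899850 to 108900101, with widths of 259, 289 and 252 bp.

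Neighbours at most 100 bp apart were 3.54% of all 24631 pairs of neighbouring intervals. The 5 windows held 3 such pairs, too few to set against that share. The lists give no summits, so it cannot be told whether a pair this close is 2 sites or 1 enriched region divided when the intervals were defined. In the whole lists 510 of the 871 close pairs (58.6%) were both GATA1 only, as is the pair of FOXO3 intervals 2 and 3. GATA1-only intervals were 63.8% of all intervals. A shared interval followed by a TAL1-only one, as in FOXO3 intervals 5 and 6, made up 22 of the 871 (2.53%). Pairs that were both TAL1 only, like the first 2 ULK1 intervals, were 25 of the 871 (2.87%).

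When intervals of either list were joined across gaps of at most 10 kb, the FOXO3 stretch formed 1 cluster of 9 intervals. Of 15417 clusters in the lists, 10169 of them single intervals, 43 (0.279%) held at least 9 intervals and 13 (0.0843%) held at least 6 shared ones. The 43 clusters held 462 of 24654 intervals. The 10 kb distance was added after the data were seen. At the longer joining distance planned at first, the FOXO3 cluster also had 9 intervals. Of 14465 clusters, 68 then held at least 9 intervals and 22 at least 6 shared ones. At 5 kb the cluster came apart into 6 and 3 intervals with 3 shared in each, and clusters of at least 6 and at least 3 intervals were then 0.283% and 7.24% of 18002. Joining at 10 kb left FOXO3 intervals 10 and 11 alone and put 12 and 13 together, while at 5 kb these last also stood apart.

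The 4 GATA1-only intervals after the stretch were at 108927393 to 108927884, 108982689 to 108982980, 108996504 to 108996633 and 109005998 to 109006291. Their gaps to the nearest TAL1 interval were 27.3, 82.6, 96.4 and 105.9 kb. The median gap of all GATA1-only intervals was 37.8 kb, with a middle 50% of 11.0 to 102.2 kb, so the last of the 4 lay above that range. The close pair within the stretch had gaps of 1.27 and 1.45 kb, at the 6.25 and 6.84 percentiles of GATA1-only intervals. Because the stretch was bounded by TAL1 intervals, short gaps within it follow from how it was drawn. The difference from the 4 later intervals is therefore not a separate result.

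**Figure D2:**
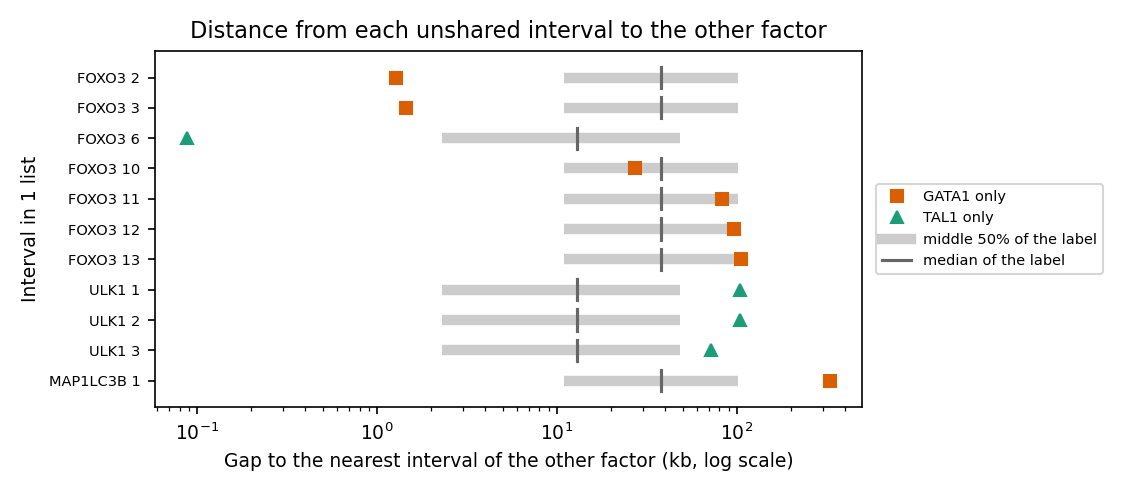
Gap in kb (log scale) from each interval listed for 1 factor to the nearest interval of the other factor; squares are GATA1 only and triangles TAL1 only, numbered along each window, with grey bars for the middle 50% and dark ticks for the median of all intervals with the same label. FOXO3 intervals 2, 3 and 6 lie left of their bars, at 1.27, 1.45 and 0.088 kb, while FOXO3 interval 13 and the ULK1 and MAP1LC3B intervals lie right of theirs.

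The ULK1 window held TAL1 without GATA1. Its 49 kb (chromosome 12, 132369000 to 132418000, band 12q24.33) held 3 TAL1-only intervals and 0 GATA1 intervals. A count of 0 in this length allows a GATA1 density of up to 6.12 per 100 kb (3 counts, a 95% limit on the upper side alone). At least 3 intervals of any kind stood in 4.94% of 61956 tiles of this length, and at least 3 TAL1-only intervals with none of GATA1 in 1 of them (0.00161%). The ULK1 intervals themselves fell on both sides of a tile boundary and are not that tile. The first 2 intervals, at 132380673 to 132380893 and 132380953 to 132381140, were 221 and 188 bp wide and 59 bp apart. The third interval, at 132413521 to 132413872, was 352 bp wide and lay 32.4 kb further on, centred 4.3 kb before the window end.

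GATA1 intervals were far from all 3. The nearest was 104.8 and 104.6 kb from the first and second ULK1 intervals and 71.9 kb from the third. TAL1-only intervals as a whole lay a median of 13.0 kb from a GATA1 interval (middle 50% 2.31 to 48.5 kb), and the ULK1 gaps were at the 87.2, 87.1 and 81.8 percentiles. No GATA1 interval stood in the 363.6 kb around them. Runs of 3 or more consecutive TAL1-only intervals numbered 21 of 1670 TAL1-only runs in the lists (1.26%), and 2 of the 21, that of ULK1 among them, spanned no more than 33.2 kb. Runs of 2 or more numbered 191. If pairs at most 100 bp apart are joined, ULK1 holds 2 TAL1-only sites, and runs of at least 2 such sites were 164 of 1620 (10.1%), 88 of them within the span of that of ULK1. The run of 3 and the tile count thus rest on counting the close pair as 2. Runs and distances were looked at after the intervals had been seen. In gene order, PUS1 is the next protein-coding gene after ULK1 and MMP17 the one before it, in RefSeq for GRCh38.p14. Which of these genes the third interval is nearest to was not measured, because no hg19 annotation was used.

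The ULK1 window held 6.12 intervals per 100 kb (Poisson 95% interval 1.26 to 17.9), against 0.5 in its flanks of 500 kb. With the close pair counted as 1 site it held 4.08 sites per 100 kb (0.494 to 14.7), and this interval includes the 0.783 sites per 100 kb of chromosomes 1 to 22 and X. All 5 intervals of those flanks were GATA1 only. The window and its surroundings thus had no label in common.

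The genes of the ATG8 proteins had 1 interval between them. The MAP1LC3B window of 34 kb (chromosome 16, 87415000 to 87449000, band 16q24.2) held 1 GATA1-only interval, at 87425647 to 87425921 and 275 bp wide, centred 10.8 kb into the window. At least 1 interval of any label was found in 15.7% of 89291 tiles of this length, and exactly 1, a GATA1-only interval, in 5.9%. The nearest TAL1 interval was 329.3 kb away, at the 93.6 percentile of GATA1-only intervals and the longest such gap among the members. The flanks of 500 kb held 14 intervals, 6 of them shared, 7 GATA1 only and 1 TAL1 only. RefSeq lists FBXO31 before and ZCCHC14 after MAP1LC3B.

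The GABARAPL1 window of 31 kb (chromosome 12, 10355000 to 10386000) held 0 intervals of either list. This allows up to 9.68 per 100 kb (3 counts, a 95% limit on the upper side alone). No interval was found in 85.3% of 97934 tiles of this length. The nearest intervals on both sides were shared. The one before, at 10047861 to 10048438, ended 306.6 kb from the window, and the one after, at 10515916 to 10516287, began 129.9 kb beyond it. The stretch without an interval measured 467.5 kb. TMEM52B is listed before and KLRD1 after GABARAPL1 in RefSeq.

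The BNIP3L window of 51 kb (chromosome 8, 26230000 to 26281000, band 8p21.2) held 1 shared interval, at 26248514 to 26248896 and 383 bp wide, centred 18.7 kb into the window. At least 1 interval of any label was found in 20.5% of 59523 tiles of this length, and exactly 1, a shared interval, in 2.58%. The nearest other interval was 57.7 kb away, a gap longer than or equal to that of 89.7% of shared intervals, whose median was 4.38 kb. Of all shared intervals 35.9% stood alone when gaps of at most 10 kb were joined. The flanks of 500 kb held 3 intervals, 2 GATA1 only and 1 TAL1 only.

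**Figure D3:**
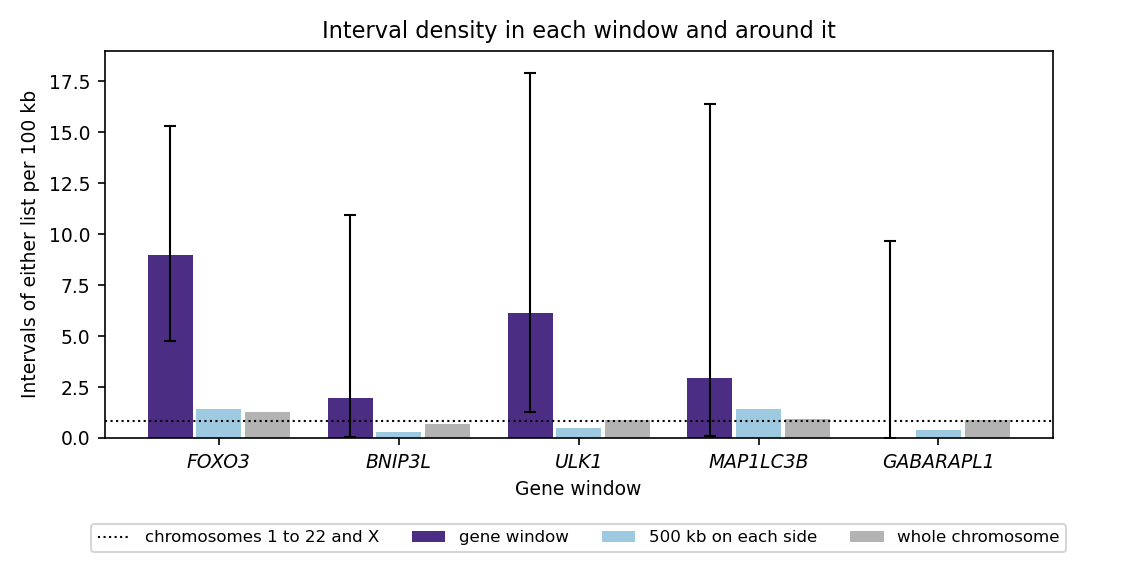
Intervals of either list per 100 kb in each gene window (dark bars, with exact Poisson 95% intervals that cover counting error only, and for GABARAPL1 the limit of 9.68 that a count of 0 allows), in the 500 kb on each side of it (light bars) and over its whole chromosome (grey bars); the dotted line is the 0.812 per 100 kb of chromosomes 1 to 22 and X. The Poisson intervals of FOXO3 and ULK1 stay above this line, that of ULK1 only with its close pair counted as 2 intervals. Those of BNIP3L and MAP1LC3B reach below it. Poisson intervals treat the listed regions as independent. Of 24654 regions, 14485 stood in clusters of 2 or more at gaps of at most 10 kb. The Poisson intervals are therefore too narrow, and the comparison with the line is not a test. For GABARAPL1 the limit is a 95% limit on the upper side alone, unlike the other error bars.

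The shared intervals at FOXO3 were narrow for their label. The 6 shared FOXO3 intervals measured 149 to 356 bp, all under the median of 373 bp for all shared intervals, and 4 of them were under its lower quartile of 270 bp. The shared BNIP3L interval measured 383 bp. Among the 7 GATA1-only members, the widths were 97 to 492 bp, beside a median of 264 bp in the lists. The 492 bp of FOXO3 interval 10 stood at the 87.1 percentile of its label, and the 97 bp of interval 2 at the 6.19 percentile. The 4 TAL1-only members measured 188 to 352 bp, beside a median of 274 bp. A shared interval has 1 pair of boundaries in both lists, so its width is not a measurement of either factor alone.

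**Figure D4:**
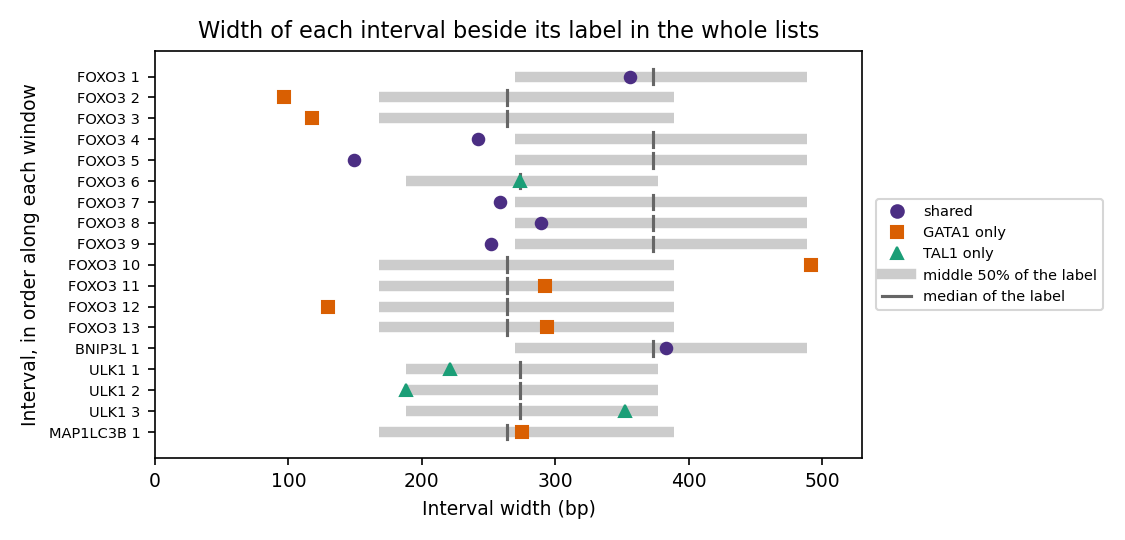
Width in bp of each of the 18 intervals, in order along each window; circles are shared, squares GATA1 only and triangles TAL1 only, with grey bars for the middle 50% and dark ticks for the median of all intervals with the same label. The 6 shared FOXO3 intervals lie left of the 373 bp median of shared intervals, and FOXO3 interval 10 is the widest at 492 bp.

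At the window edges, the intervals just inside were FOXO3 intervals 1 and 13, centred 9.43 kb from the start and 9.86 kb from the end, and the third ULK1 interval. Those just outside were GATA1 only, one at 87410351 to 87410644, which ended 4.36 kb before the MAP1LC3B window, and one at 108863311 to 108863601, which ended 7.4 kb before the FOXO3 window. With these included, the MAP1LC3B count would be 2 and the FOXO3 count 14, all additions being GATA1 only.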

How the data were processed

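For each of the 2 libraries used, the authors deposited a list of 3 columns without header. The columns hold the chromosome, first and last position of every interval and no score. The other libraries had no such list. Per the submitters' processing notes, Trimmomatic, Bowtie2, MACS2 and deepTools are listed beside build hg19; no role, version or threshold is stated. Pooling of reads before peak calling is likewise not given in the sources used.

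Members were rows overlapping a window by at least 1 base, counted in Python 3.11.15 with pandas 2.3.3 and checked with bedtools 2.31.1 and on simulated lists. Positions count from 1. Chromosome lengths and bands came from circlize 0.4.16, exact intervals from scipy 1.17.1 and figures from matplotlib 3.10.9. The 4 mitochondrial TAL1 intervals enter the shares of each label and the overlap shares over whole lists. They enter no width, cluster, distance or density value. The windows of all 5 genes are described, whatever their values, while the motif search left out BNIP3L. The genes and lists were chosen with earlier results of these data known, so no p-value is given. The reference tables are in GRCh38.p14, so motifs within intervals and counts at other autophagy genes were not analysed here.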

Additional observations from a re-analysis of the deposited data

How the results depend on the processing

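The 95% intervals of both shares are wide, so a value that stays within them says little about stability. Width stood for a stricter list, because the lists carry no score: 4 of the 18 intervals (22.2%) reached the median width of a list that held them, against 48.7% of all intervals, and a filter at the median lowers any count. Without the FOXO3 window, 25% of TAL1 intervals were also in the GATA1 list in place of 63.6%, and the density was 3.03 per 100 kb in place of 5.81. Without ULK1 the share of TAL1 intervals was 87.5%. The share of GATA1 intervals was 46.2 to 53.8% without any 1 of the 3 windows that hold some; leaving out a window without an interval of a list cannot change its share. With windows widened or narrowed by 10 kb on each side there were 20 or 16 intervals, and with intervals within 2 kb joined there were 12 sites. With pairs at most 100 bp apart joined, an alternative added after the data were seen, the density was 4.84 sites per 100 kb. The members fell into 8 clusters at the planned joining distance and at 10 kb, a distance added after the data were seen and used in the text, into 10 at 5 kb and into 7 at 25 kb. Narrowing removed the third ULK1 interval and the first FOXO3 interval. No paired analysis was possible because each factor has 1 library. Depth limits these values in an unknown way: no read totals are stated, so an interval missing from a list does not show that the factor was absent.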
